A study of Mus musculus with 12 samples.

Results

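The genes described here, under 9 names, are near-identical copies and genes associated with mouse substrains, followed across 12 lung libraries: Fam177a2 and Fam177a, Tmed2b and Tmed2, Rnaset2a and Rnaset2b, Nnt, Wdfy1 and Entpd4. They were found as the rows of the expression table that carry these names. The rule gave 10 rows of 56980, because Nnt is listed under 2 identifiers. The names were chosen from differences already seen between the Control libraries and the libraries of bleomycin-treated mice. Levels in those contrasts are therefore given as a description with no test, and only the comparison of HBG with Model was tested.

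The libraries hold polyadenylated RNA from lungs of male C57BL/6 mice aged 6 to 8 weeks, and the labels name no substrain. HBG mice (n = 4) received bleomycin and Huashibaidu granules at 7 g/kg by mouth, Model mice (n = 4) received bleomycin and water, and Control mice (n = 4) received water. Bleomycin, a drug that injures the alveolar lining and leads to scarring, was instilled once into the trachea at 5 mg/kg. The sources differ on the granules: the series text has them start 1 week before bleomycin and run to day 28, while the sample text has them start on day 7 and run for 14 days. Whether Control mice had an instillation is not stated. The labels do not tie libraries to separate animals beyond their replicate numbers, and p-values therefore reflect the spread among these libraries, which may be technical.

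Gene copies that arise by duplication can stay so alike that a sequencing read matches more than 1 of them, and a counting program must then assign or divide it. Inbred colonies kept apart also drift into substrains that differ by deletions, duplications and retrocopies, of which the Nnt deletion of C57BL/6J is a widely known case. Tmed2 is a p24 cargo receptor of vesicles moving between endoplasmic reticulum and Golgi. Rnaset2 enzymes are acid ribonucleases of the lysosome. Nnt is the proton-driven transhydrogenase of the inner mitochondrial membrane that supplies NADPH, Wdfy1 is an endosomal adaptor in Toll-like receptor signalling, and Entpd4 is a nucleotidase of Golgi and lysosomal membranes. Fam177a belongs to a small family of little-characterised proteins.

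The transcripts of the copies were compared in GENCODE M21 on GRCm38, since these sequences bear on how reads could be divided. On chromosome 12, Fam177a2 lies at chr12:55199592-55217168 on the plus strand, under the older name 1700047I17Rik2, and Fam177a at chr12:55124469-55142104 on the same strand, with 57487 bases between them. The annotated Fam177a2 transcript, of 3863 bases, was identical to bases 60 to 3922 of the Fam177a transcript. All 3714 windows of 150 bases (the labelled read length) in Fam177a2 were thus also in Fam177a, which had 59 windows of its own among 3773. The first 90 coding bases are shown with the start codon in capitals, from GENCODE M21 on the sense strand, and are the same in both genes.
Fam177a2: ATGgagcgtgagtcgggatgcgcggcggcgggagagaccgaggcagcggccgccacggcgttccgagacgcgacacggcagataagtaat
Fam177a: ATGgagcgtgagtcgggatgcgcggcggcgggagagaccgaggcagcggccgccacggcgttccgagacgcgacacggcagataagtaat

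Tmed2b, listed in GENCODE M21 as Gm10698, is a processed pseudogene, a retrocopy without introns, at chr9:33728247-33728850 on the plus strand. Its 604 bases were identical to bases 169 to 772 of the Tmed2 transcript, which is transcribed from chr5:124540695-124550506 and has its coding part at bases 168 to 770. All 455 windows of Tmed2b were in Tmed2, whose transcript had 1470 of 1925 windows outside it. The first 90 bases of Tmed2b are shown beside the matching stretch of Tmed2, which begins at the second coding base.
Tmed2b: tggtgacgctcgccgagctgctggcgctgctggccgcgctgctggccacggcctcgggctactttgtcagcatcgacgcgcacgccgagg
Tmed2: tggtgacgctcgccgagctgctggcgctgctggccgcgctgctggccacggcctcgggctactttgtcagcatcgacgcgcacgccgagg

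Rnaset2a, at chr17:8115445-8148097 on the minus strand, and Rnaset2b, at chr17:6970634-7011299 on the plus strand, were less alike as transcripts. The coding sequences, of 777 bases, were identical. Over 2448 aligned bases there were 13 substitutions, all outside the coding part, the first being G81C and C901T (Rnaset2a base, position counted from 1 at the transcript's 5′ end, Rnaset2b base). Of 2307 windows of the Rnaset2a transcript, 949 were not in the Rnaset2b transcript. The first 90 coding bases are shown with the start codon in capitals.
Rnaset2a: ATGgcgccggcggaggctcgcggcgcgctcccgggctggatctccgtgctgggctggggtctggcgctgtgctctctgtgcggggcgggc
Rnaset2b: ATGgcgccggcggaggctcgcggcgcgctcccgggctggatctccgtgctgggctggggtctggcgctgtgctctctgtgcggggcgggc

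Both Nnt rows lie at 1 locus, chr13:119335448-119408997 and chr13:119335528-119408952, on the minus strand. The transcript of the second identifier (ENSMUSG00000116207), of 3339 bases, was identical to bases 46 to 3384 of a transcript of the first (ENSMUSG00000025453), which had 125 of 3315 windows to itself. Entpd4, at chr14:69337174-69367270, has a copy named Entpd4b at chr14:69555424-69585520, with 188153 bases between them, and a pair of their transcripts was identical over 3589 bases. Wdfy1, at chr1:79702262-79776143 on the minus strand, shared 0 of its 5769 windows with any other annotated gene. Complete sharing was uncommon: of 17486 tested genes with such windows, 113 (0.646%) had every window in another gene, and the median gene shared 0%.

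Values below are CPM, that is estimated counts scaled to a library's total and corrected with TMM factors, as mean ± SD of 4 libraries unless given per library. Library totals were 17979908 to 20752060 in HBG, 19230871 to 22622450 in Model and 18864850 to 27150874 in Control, so a count of 0 allows up to 3 counts or 0.167 CPM before TMM scaling. All 15 lung cell markers examined, such as Sftpc of type II cells and Ager of type I cells, reached 1 CPM in every library. Heart muscle RNA was present too, with the sum of Myh6, Myl4 and Actc1 at 243 to 2183 CPM in HBG, 243 to 2040 in Model and 578 to 3462 in Control, and its part in the results was not tested. In whole lung RNA, fewer cells of a type and less RNA per cell cannot be told apart.

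Fam177a2 was at 0 in all 4 Control libraries and abundant in all 8 libraries of bleomycin-treated mice, while Fam177a was low in those 8 and abundant in Control. Fam177a2 had 97.6, 126, 106 and 128 CPM in HBG libraries 1 to 4, 125, 117, 129 and 136 CPM in Model libraries 1 to 4, and 0 in each Control library. Against the highest Control floor of 3 counts in a library, its mean was at least 708-fold higher in HBG and at least 785-fold higher in Model. The rounded counts behind these levels ran from 2092 to 2851 in the 8 libraries. The floor covers counting error only. It does not cover how reads were divided between Fam177a2 and Fam177a, which holds every Fam177a2 window.

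Fam177a had 54.3, 5.79, 10.3 and 7.65 CPM in HBG libraries 1 to 4, 6.35, 2.37, 18.1 and 8.27 CPM in Model libraries and 127, 141, 144 and 136 CPM in Control libraries. The 8 libraries of treated mice all lay below the lowest Control library, but they differed widely among themselves, and HBG 1 stood apart. The ratio of means was 0.142 for HBG over Control and 0.0639 for Model over Control. Without HBG 1 the HBG mean was 7.90 ± 2.24 CPM (SD, n = 3), against 19.5 ± 23.3 with it.

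The sum of the Fam177a rows showed no such split. It was 134 ± 14.5 CPM in HBG, 135 ± 12.9 CPM in Model and 137 ± 7.26 CPM in Control, and the 3 groups overlapped. The log2 ratio of means was -0.03 for HBG over Control and -0.02 for Model over Control. HBG 1, which had the lowest Fam177a2 level of the treated mice, had the highest Fam177a level and, at 152 CPM, the highest sum of all 12 libraries.

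Fam177a2 took 64.3% of the summed counts in HBG 1 (95% Wilson interval 62.6 to 65.9%), 95.6%, 91.2% and 94.3% in HBG 2 to 4, and 95.2%, 98.0%, 87.7% and 94.3% in Model 1 to 4. In Control it took 0%, and a count of 0 allows up to 0.127% there. The intervals cover counting error only, and the spread between libraries of a group exceeded them. How the counting program assigned the windows shared by both genes was not tested.

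**Figure D1:**
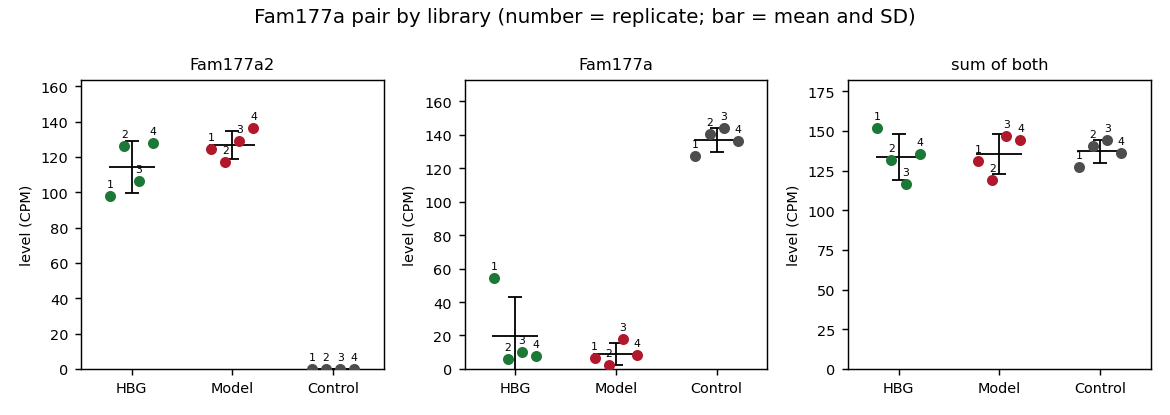
Levels of Fam177a2, Fam177a and their sum in CPM on linear axes, 1 point per library numbered by replicate, with the mean and SD of each group as bars. Fam177a2 is at 0 in Control, Fam177a reaches 54.3 CPM at most outside Control, and the sums run from 117 to 152 CPM with the groups overlapping.

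Tmed2b followed the on/off pattern at a lower level. It had 15.3, 10.9, 13.7 and 16.3 CPM in HBG libraries 1 to 4, 16.2, 19.2, 13.7 and 23.4 CPM in Model libraries, and 0 in each Control library. Its mean was at least 87.0-fold higher in HBG and at least 112-fold higher in Model than the Control floor of 3 counts in a library. Every library of treated mice was thus above every Control library. Here too the floor covers counting error only, not how reads were divided between Tmed2b and Tmed2, which holds every Tmed2b window.

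Tmed2 itself had 296, 300, 237 and 325 CPM in HBG libraries, 346, 225, 334 and 311 CPM in Model libraries, and 365, 349, 361 and 330 CPM in Control libraries. HBG lay below Control in all 4 libraries, while 2 Model libraries fell within the Control range. The means were 289 ± 37.6 CPM in HBG, 304 ± 54.8 CPM in Model and 351 ± 15.8 CPM in Control. With Tmed2b added, the sums were 303 ± 38.3 CPM in HBG and 322 ± 53.4 CPM in Model, against the same 351 ± 15.8 CPM in Control, and both treated groups overlapped Control.

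Tmed2b took a small part of its pair, unlike Fam177a2. Its share was 4.91%, 3.51%, 5.49% and 4.77% in HBG libraries and 4.48%, 7.87%, 3.94% and 6.99% in Model libraries. In Control its share was 0%, with up to 0.0449% allowed by a count of 0 when only counting error is covered. Per kilobase of the deposited gene length, Tmed2b averaged 23.3 CPM in HBG and 30.01 CPM in Model, beside 140 and 147 CPM per kilobase for Tmed2 in the same groups.

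Rnaset2a was present in every library, at a lower level in treated mice. It had 31.4, 17.03, 13.4 and 22.6 CPM in HBG libraries, 31.9, 18.7, 30.7 and 20.2 CPM in Model libraries, and 81.4, 65.0, 65.7 and 66.4 CPM in Control libraries. The highest treated library, Model 1, was below the lowest Control library. The ratio of means was 0.303 for HBG over Control and 0.364 for Model over Control.

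Rnaset2b did not mirror this. It averaged 133 ± 8.60 CPM in HBG, 131 ± 10.2 CPM in Model and 140 ± 13.8 CPM in Control, with overlapping groups. The sum of both genes was 154 ± 16.04 CPM in HBG, 156 ± 16.9 CPM in Model and 210 ± 19.0 CPM in Control. All 8 sums of treated mice, at 137 to 177 CPM, lay below the 4 Control sums, at 190 to 232 CPM, so here the difference remained after summing. Rnaset2a took 9.49 to 17.8% of the pair in HBG, 13.7 to 18.4% in Model and 30.01 to 35.1% in Control.

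**Figure D2:**
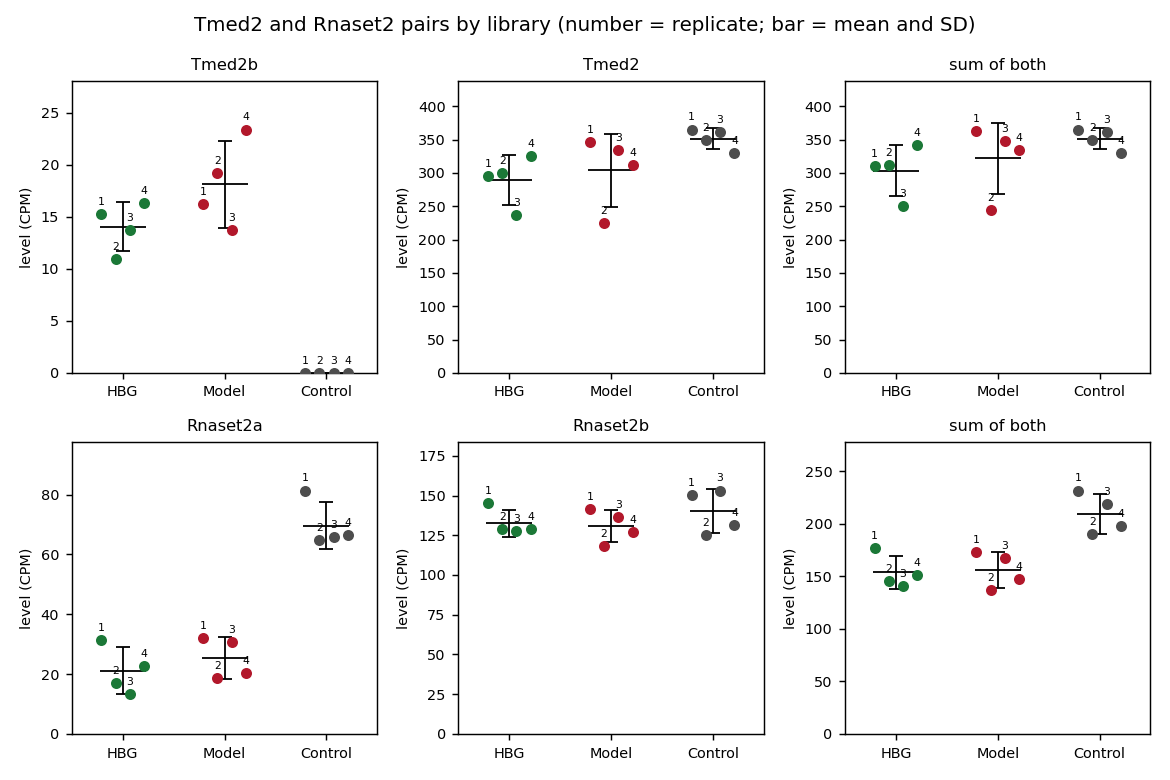
Levels of the Tmed2 pair (upper panels) and the Rnaset2 pair (lower panels) in CPM on linear axes, 1 point per library numbered by replicate, with group mean and SD. Tmed2b is at 0 in Control and at most 23.4 CPM elsewhere, and the Rnaset2 sums of treated mice lie below the lowest Control sum of 190 CPM.

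Nnt was measured in all 12 libraries when its rows were added: 26.2, 21.7, 24.9 and 29.9995 CPM in HBG, 22.0, 22.8, 24.3 and 31.6 CPM in the Model libraries, and 22.0, 38.7, 26.97 and 26.5 CPM in the Control libraries. The groups overlapped, with means of 25.7 ± 3.44, 25.2 ± 4.41 and 28.5 ± 7.16 CPM in HBG, Model and Control. No library lacked counts of Nnt, and the lowest sum was 21.7 CPM. Counts per gene do not show which exons the reads came from, so the presence of counts does not show an intact gene. Whether any library carried the Nnt deletion was not tested.

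The division between the Nnt rows was uneven. The second row had 4.71, 12.5, 0 and 16.1 CPM in HBG libraries, 0.427, 11.6, 12.3 and 11.1 CPM in Model libraries, and 14.3, 21.2, 14.5 and 16.1 CPM in Control libraries. HBG 3 was at 0 and Model 1 was close to it, whereas their first rows, at 24.9 and 21.6 CPM, were the 2 highest of the 12 libraries. The second row took 0 to 57.6% of the Nnt counts in HBG, 1.94 to 51.0% in Model and 53.9 to 65.2% in Control. In HBG 3 a count of 0 allows a share of up to 0.568%, which covers counting error only. All 3190 windows of the second row's transcript were in the first, and how the counting program divided such reads was not tested.

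Wdfy1, which shares no window with another gene, was at a like level in the 3 groups, which overlapped. It had 28.1, 34.4, 22.4 and 31.4 CPM in HBG libraries, 27.8, 25.1, 34.3 and 29.3 CPM in Model libraries, and 34.3, 33.2, 34.2 and 35.6 CPM in Control libraries. Control libraries spanned 33.2 to 35.6 CPM, within which 1 library of each treated group fell, and the others were lower. The ratio of means was 0.847 for HBG over Control and 0.849 for Model over Control.

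Entpd4 had 60.9, 39.9, 47.0 and 58.4 CPM in HBG libraries, 51.0, 49.7, 51.8 and 45.1 CPM in Model libraries, and 50.3, 64.6, 53.6 and 51.1 CPM in Control libraries. The groups overlapped. Entpd4b averaged 32.6 ± 7.95 CPM in HBG, 29.7 ± 4.02 CPM in Model and 38.4 ± 3.11 CPM in Control. Although their compared transcripts are identical, both rows held counts in every library, and Entpd4b took 36.2 to 41.2% of the sum in HBG, 35.5 to 40.0% in Model and 39.0 to 44.2% in Control. Over all their annotated transcripts, all 8304 windows of each gene were also in another gene. How the counting program divided such reads between the rows was not tested.

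**Figure D3:**
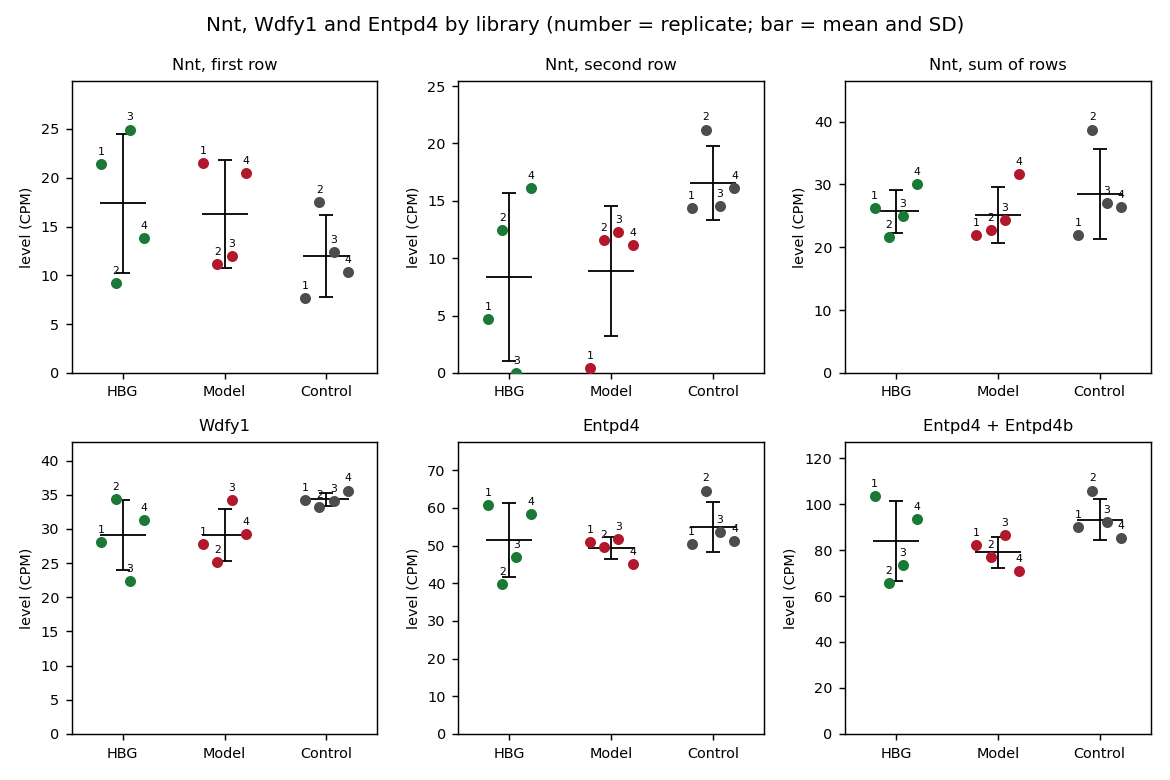
Levels of both Nnt rows and their sum, of Wdfy1, of Entpd4 and of Entpd4 with Entpd4b, in CPM on linear axes, 1 point per library numbered by replicate, with group mean and SD. The second Nnt row is at 0 in HBG 3 and 0.427 CPM in Model 1, yet the Nnt sums of those libraries, 24.9 and 22.0 CPM, lie among the others.

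**Figure D4:**
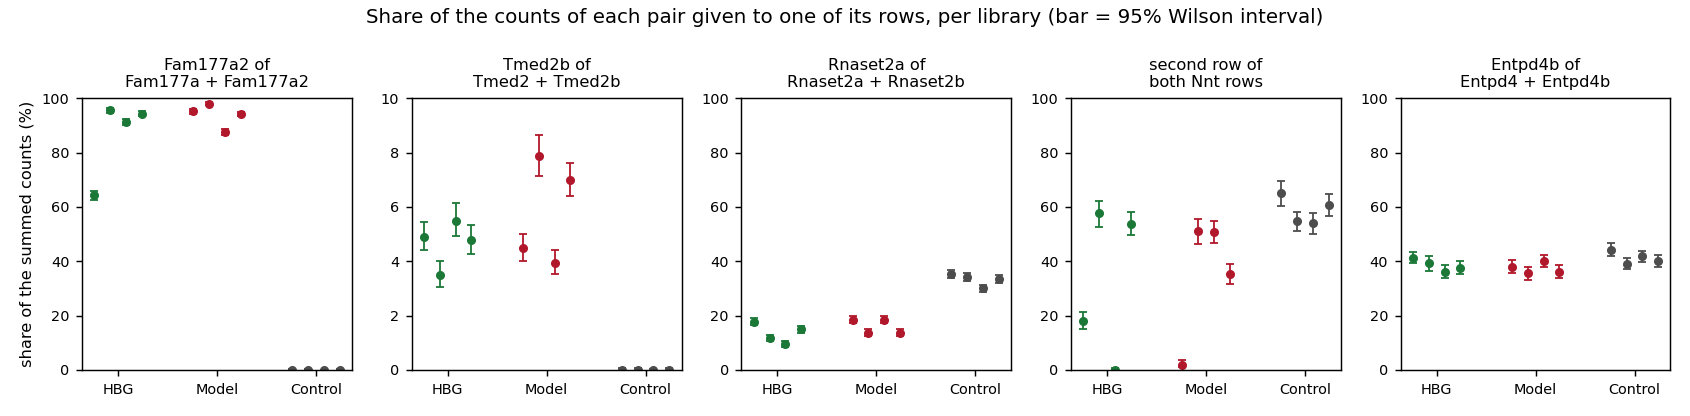
Share of each pair's counts given to one of its rows, in percent, 1 point per library with its 95% Wilson interval. The Tmed2b panel runs to 10% and the others to 100%. Fam177a2 and Tmed2b are at 0% in Control, the Rnaset2a share is 30.01 to 35.1% in Control and at most 18.4% elsewhere, and the Entpd4b share stays between 35.5 and 44.2%.

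Across the 10 rows, 2 lay above and 3 below Control in all 4 HBG libraries, and 2 above and 3 below in all 4 Model libraries. The third row below Control was Tmed2 in HBG and the second Nnt row in Model. Over all 17827 genes tested, 6.33% did not overlap between HBG and Control and 8.71% did not overlap between Model and Control. For all 8 treated libraries against Control, 2 rows lay above, 2 below and 6 overlapped, beside 2.88% of genes not overlapping in either direction. The rows were picked from these contrasts, so the counts describe that choice.

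Per kilobase of deposited length, Tmed2 was the most abundant row in each group, with 140, 147 and 169 CPM per kilobase in HBG, Model and Control. Rnaset2b followed with 74.3, 73.3 and 78.5 CPM per kilobase. Next in treated mice came Fam177a2, with 29.6 ± 3.84 in HBG and 32.8 ± 2.10 in Model, Entpd4, with 28.0 ± 5.34 in HBG and 26.8 ± 1.62 in Model, and Tmed2b, with 23.3 ± 3.87 in HBG and 30.01 ± 6.90 in Model (SD, n = 4 each). In HBG each of these 3 rows lay within about an SD of the one next to it among the 3. In Model Tmed2b lay between Fam177a2 and Entpd4, and within its own SD of both. In Control, Fam177a (34.9), Entpd4 (29.8) and Rnaset2a (28.3) took that place. In treated mice Rnaset2a had 8.59 CPM per kilobase in HBG and 10.3 in Model. Wdfy1 had 6.39, 6.40 and 7.54 CPM per kilobase in HBG, Model and Control, and the Nnt rows stayed at or under 5.01. Fam177a had 4.97 CPM per kilobase in HBG and 2.23 in Model. This order depends on the deposited lengths, which differ even between like copies. They were 1842 bases for Entpd4 and 3589 for Entpd4b, and 2456 for Rnaset2a and 1783 for Rnaset2b.

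The on/off pattern was rare over the table. Of 34379 genes with a count in any library, 3 (0.00873%) had 0 in all 4 Control libraries and at least 10 counts in each of the 8 libraries of treated mice, and 0 genes (0%) showed the reverse. Both Fam177a2 and Tmed2b were among the 3. No gene was at 0 in all HBG libraries, or in all Model libraries, and at 10 counts or more in each of the other 8.

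The third gene was Gm38287, named here after its values were seen. It is annotated as an antisense transcript at chr2:25180781-25183339 on the minus strand, overlapping Nrarp, a feedback inhibitor of Notch signalling, and it shared 0% of its windows with other genes. It had 10.1, 10.2, 18.2 and 17.1 CPM in HBG libraries, 15.6, 6.66, 16.9 and 14.1 CPM in Model libraries, and 0 in each Control library. Nrarp averaged 35.0 ± 11.8 CPM in HBG, 36.3 ± 12.9 CPM in Model and 72.5 ± 2.17 CPM in Control, and all treated libraries lay below Control. The sum of the overlapping genes was 48.9 ± 11.3 CPM in HBG, 49.6 ± 16.7 CPM in Model and 72.5 ± 2.17 CPM in Control, and 1 Model library then fell within the Control range. The kit marks strand, but the sources used here do not say whether the counting used it, so reads of these genes may not be told apart.

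Genes around the Fam177a copies showed no comparable split. Within 200 kb, 9 other genes had at least 1 CPM in 4 or more libraries, and for 0 of them did the 8 treated libraries separate from Control. They include Srp54a, Srp54b and Srp54c, near-identical genes of the signal recognition particle. Srp54b averaged 43.5 ± 3.99 CPM in HBG, 49.1 ± 8.63 CPM in Model and 35.9 ± 4.39 CPM in Control, with Model above Control in all 4 libraries (edgeR adjusted p = 0.228). The 3 Srp54 genes together had 203 ± 7.70, 215 ± 9.55 and 207 ± 7.27 CPM in HBG, Model and Control. Baz1a, a subunit of chromatin remodelling complexes, averaged 39.0 ± 15.7 CPM in HBG, 40.1 ± 9.57 CPM in Model and 29.8 ± 0.649 CPM in Control, and its Model libraries were also all above Control (edgeR adjusted p = 0.514). The other 4 neighbours were 2700097O09Rik, Gm2446, Ppp2r3c and Prorp, whose groups overlapped. Psma6, a proteasome subunit, averaged 78.1 ± 7.49, 78.5 ± 7.61 and 79.2 ± 3.36 CPM in HBG, Model and Control.

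Other near-identical genes were also checked for a change in the share of a copy. For Hspa1a and Hspa1b, which encode the inducible heat shock protein, for the alpha-globin genes Hba-a1 and Hba-a2, for C4a and C4b, for Ccl27a and Ccl27b, and for the Srp54 genes, the shares of treated and Control libraries overlapped. Hspa1a, for example, took 45.5 to 54.8% of its pair in HBG, 41.5 to 52.7% in Model and 38.5 to 47.2% in Control. C4a took at most 0.868% of its pair in any library and Ccl27b at most 1.27%, so a fall in their shares could hardly show. Among the 109 tested genes other than the members with every window shared, 16 (14.7%) did not overlap between Model and Control, beside 8.69% of all tested genes with windows. For HBG against Control the values were 14 (12.8%) and 6.29%. Such genes also had larger absolute log2 fold changes in all 3 comparisons, HBG against Model included, with a median of 0.25 there against 0.11 over all. By edgeR's test 0 of the 109 were called in any comparison. Over all tested genes with windows, 0.332% were called in Model against Control, 0.137% in HBG against Control and 0% in HBG against Model. The genes were not matched for level, and the part of low counts was not tested. These are descriptions of the table.

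Between HBG and Model the members were tested, since that contrast did not choose them. By edgeR's quasi-likelihood test with Benjamini-Hochberg adjustment, 0 of the 10 rows and 0 of the 3 pair sums passed, where 0 of 17827 genes (0%) passed at all. At an unadjusted p under 0.05 there were 433 genes over the table and 0 of the 10 rows. DESeq2 called 3 genes over the table and 0 rows, with 1 row given no adjusted p. In 0 rows did the libraries of HBG and Model separate, beside 1.12% of genes tested.

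For Fam177a2 the log2 fold change of HBG over Model was -0.15 ± 0.11 (SE, edgeR adjusted p = 0.9999), with 1 of 4 HBG libraries above the Model mean. Tmed2b had the smallest unadjusted p of the 10 rows, with a log2 fold change of -0.37 ± 0.20 (edgeR unadjusted p = 0.099, adjusted p = 0.9999), and 0 of 4 HBG libraries were above the Model mean. Fam177a had 1.15 ± 0.70 (SE, edgeR adjusted p = 0.9999), and the value was -0.15 without HBG 1, so that library sets its direction.

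For the sums, whose SE was not always smaller than that of their rows, the values lay near 0. For Fam177a with Fam177a2 the log2 fold change was -0.02, and 2 SE either side spanned -0.22 to 0.18. For Rnaset2a with Rnaset2b it was -0.02, spanning -0.24 to 0.20, and for Tmed2 with Tmed2b -0.09, spanning -0.35 to 0.18. Wdfy1 had -0.00, spanning -0.27 to 0.26, and Entpd4 had 0.06, spanning -0.21 to 0.33. The second Nnt row was the least certain, at -0.10 with a span of -2.06 to 1.86, while the sum of both Nnt rows had 0.03, spanning -0.33 to 0.39. A p that misses the threshold does not show equal levels, and these spans give the sizes of change the data leave room for.

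**Figure D5:**
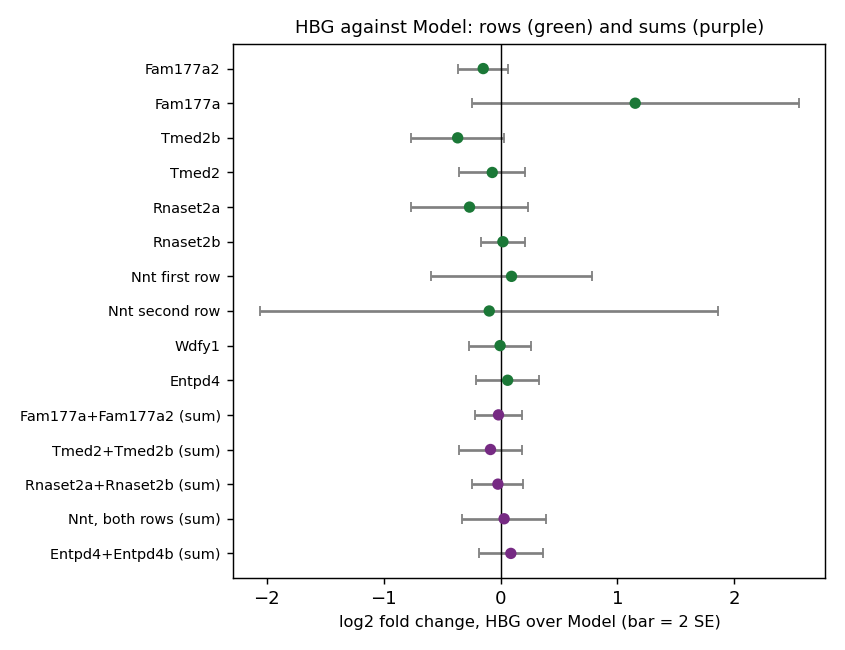
Log2 fold change of HBG over Model with 2 SE either side for the 10 rows (green) and the 5 sums (purple). The sums cluster near 0, while Fam177a at 1.15 and the second Nnt row at -0.10 carry the widest bars.

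Genes related to the members were examined as 7 lists, with members left out. By edgeR's quasi-likelihood test 0 of 63 tested list genes passed in Model against Control, where 0.348% of all genes tested were called. At an unadjusted p under 0.05 there were 15 of the 63, beside 2084 of all 17827 genes tested. In HBG against Control 0 of 63 passed, beside 0.151% of all genes. There 11 had an unadjusted p under 0.05, beside 1470 of the 17827. In HBG against Model 0 of 63 passed and 1 had an unadjusted p under 0.05, beside 433 of the 17827. DESeq2 called 2 list genes in Model against Control and 0 in the other comparisons.

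The p24 cargo receptors, partners of Tmed2, had 8 of 10 listed genes tested and a median log2 fold change of 0.05 in Model against Control, beside 0.01 over all genes tested. Tmed10, the most abundant of them, averaged 238 CPM in HBG, 246 CPM in Model and 226 CPM in Control. The nucleotidases related to Entpd4 had 3 of 8 tested genes with a higher and 5 with a lower mean in Model, with a median of -0.22. Entpd1, the surface enzyme that degrades extracellular ATP, averaged 106 CPM in HBG, 117 CPM in Model and 86.6 CPM in Control.

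Lysosomal nucleases and nucleic acid sensors, the setting of Rnaset2 and Wdfy1, had higher means in Model than in Control for 10 of 10 genes and in HBG than in Control for 9 of 10. The median log2 fold change was 0.67 in Model and 0.63 in HBG, beside 0.01 over all genes in each. Pld3, a lysosomal exonuclease, averaged 81.3 CPM in HBG, 111 CPM in Model and 55.5 CPM in Control, with both treated groups above Control in every library. In Model against Control it had an edgeR adjusted p of 0.141, and DESeq2 called it with an adjusted p of 0.00801. Slc29a3, a lysosomal nucleoside transporter, had a log2 fold change of 0.73 for Model over Control (edgeR adjusted p = 0.200), and was called by DESeq2 with an adjusted p of 0.048. The summed macrophage markers Cd68, Lyz2 and Mrc1 ran from 5542 to 6883 CPM in HBG, 4041 to 9483 in Model and 4232 to 6506 in Control, and Cd68 alone averaged 35.4, 51.9 and 14.6 CPM in HBG, Model and Control. Their part in these values was not tested.

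Mitochondrial NADPH and peroxide genes, which act beside Nnt, had 5 of 17 genes with a higher and 12 with a lower mean in Model than in Control, and a median of -0.09. Idh2, which makes NADPH in mitochondria, averaged 133 CPM in HBG, 125 CPM in Model and 159 CPM in Control (edgeR adjusted p = 0.361 for Model against Control). The WDFY relatives of Wdfy1 had a median of 0.15 over 3 genes.

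Of 8 other genes reported to differ between C57BL/6 substrains, 4 had a higher and 4 a lower mean in Model than in Control, with a median of -0.00. None was at 0 in a group, but a gene that differs between substrains need not lose its counts. Crb1, a polarity protein of the retina, averaged 1.87, 2.63 and 3.42 CPM in HBG, Model and Control, and Cyfip2, which regulates actin, averaged 68.8, 62.7 and 62.2 CPM. Mmrn1, a platelet and endothelial protein, averaged 26.8, 31.4 and 15.3 CPM, with Model above Control in all 4 libraries (edgeR adjusted p = 0.237). Substrain is not in the labels and its part in any of these levels was not tested.

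Genes whose levels ran most like those of the members were listed by Pearson r of log2(CPM + 0.5) over the 12 libraries, with the members themselves left out. Outside the members, Gm38287 was closest to Fam177a2 (r = 0.987), followed by Slc35a5 (0.923), Hdac4 (0.912), Iglv2 (0.905) and Timp3 (0.900), for which Control was lower by a smaller margin. Slc35a5, for instance, averaged 40.0 CPM in HBG, 40.9 CPM in Model and 32.5 CPM in Control. Oxnad1 (0.930), Tmod1 (0.914), Trmt5 (0.906), Gjc3 (0.880) and Gm15543 (0.879) ran closest to the Nnt sum. For Wdfy1 they were Mapk12 (0.949), Nae1 (0.945), Clasrp (0.937), Gm43062 (0.936) and Msantd2 (0.933). These r values were picked as the highest among the tested genes that are not members, which share libraries and depth, and are given as a description.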

How the data were processed

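RNA of 12 mouse lungs was analysed from a single deposited table of estimated counts per gene. The unit was read from the values, of which 10.0 to 15.1% per library were not whole numbers, and the deposited gene length served for levels per kilobase. The submitters' processing notes name DESeq2 1.34.0, the counters featureCounts 2.0.1 and HTSeq, the aligners STAR 2.7.9a and HISAT2, and the builds GRCm39 and mm10. The sources used here do not give which of them made the table, nor its annotation or strand setting. Replicates differed beyond counting noise in all 18 pairs within groups (r of log2 CPM 0.929 to 0.989), and HBG 3 had the lowest correlations.

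Counts were rounded. edgeR 4.0.16 in R 4.3.3 (TMM, filterByExpr, quasi-likelihood F test, 3 groups in 1 fit) tested 17827 genes, with two-sided p-values adjusted by Benjamini-Hochberg and a threshold of 0.05. Pair sums were tested after replacing both rows by their sum in the whole table. DESeq2 1.42.0 and other settings served as alternatives. Coordinates and sequences come from GENCODE M21 on GRCm38, in which 52073 of 56980 identifiers were found. For 97.2% of these the deposited length equals the length of an annotated transcript. Windows of 150 bases were compared over all annotated transcripts on the sense strand. Intervals of shares are Wilson 95% intervals, and they and the floors of 3 counts cover counting error only, as the reads carry no molecular identifiers.

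Members, lists and rules for named genes were chosen with earlier results of these data known. Named were all members, the 9 neighbours within 200 kb, and the 5 genes most like each of Fam177a2, Nnt and Wdfy1, members left out. As no list gene passed, those printed, like Gm38287 and Nrarp, were picked after their values were seen.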

Additional observations from a re-analysis of the deposited data

Results flagged for a closer look

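In 43 groups of 4 libraries (10 rows and 5 sums in 3 groups, those at 0 throughout left out), 4 held a library far from the other 3, its gap to the nearest exceeding Dixon's 95% critical value as a share of the group's range. Chance flags about 1 in 20 such groups. HBG 1 had 54.3 CPM of Fam177a, against 5.79 to 10.3 CPM in the other HBG libraries, and 145 CPM of Rnaset2b, against 128 to 129 CPM. Model 1 had 0.427 CPM of the second Nnt row, against 11.1 to 12.3 CPM in the other Model libraries. Control 1 had 81.4 CPM of Rnaset2a, against 65.0 to 66.4 CPM in the other Control libraries.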

How the results depend on the processing

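With 18 alternatives (DESeq2, RLE factors, no filter, a mean of at least 1 CPM, 2 groups only, the replicate block and each library left out), 0 member rows and 0 pair sums passed in HBG against Model, and summing 5 groups of rows instead of 3, chosen after seeing the data, gave 0 as well. Over the table the count was 0 except for 3 with DESeq2. List genes called in Model against Control numbered 2 with DESeq2 and 0 to 1 with a library left out (1 without Model 4, Pld3). Of 234 alternative fold changes of HBG over Model, 205 kept their direction and 29 turned, with no adjusted p under 0.86. Wdfy1 turned to 0.007 with DESeq2 and with RLE factors, 0.005 with no filter and 0.008 with 2 groups only. With each library left out the log2 fold change ran from -0.15 to 1.79 for Fam177a, -0.191 to 0.014 for Tmed2, -0.027 to 0.060 for Rnaset2b, -0.13 to 0.30 and -0.64 to 0.32 for the first and second Nnt rows, -0.10 to 0.10 for Wdfy1, -0.029 to 0.165 for Entpd4, -0.084 to 0.043 for the Fam177a sum and -0.097 to 0.026 for the Rnaset2 sum. The causes were not tested. All 154 alternative ratios of bleomycin groups over Control moved by less than the SD between replicates, but some log2 ratios turned from negative to positive. The Fam177a sum reached 0.027 in HBG without HBG 3 and 0.040 in Model without Model 2. The Nnt sum reached 0.032 in HBG and 0.001 in Model, each without Control 2. The on/off count was 3 or 4 under every alternative. Whether replicate numbers pair the samples is not known. Correlations of same-numbered deviations had mixed signs (HBG with Model -0.21 to 0.55), and so few values cannot decide it. With the replicate block, 0 genes were called in HBG against Model and Fam177a had 0.87.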
